A study of Mus musculus with 6 samples.

Results

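The genes followed here encode the cerebellin bridge of synapses and its partners, namely *Cbln1*, *Cbln2*, *Cbln3*, *Cbln4*, *Grid1*, *Nrxn2* and *Nrxn3*. They were chosen by gene name, which gave 7 of the 55421 genes in the count table, and all 7 were abundant enough to be among the 17069 genes tested. The table covers 6 hippocampal RNA libraries, each from 1 male wild-type C57BL/6N mouse aged 8 to 10 weeks. The 3 mice of the SP group received substance P (10 µM, 100 µL) under the skin on 14 consecutive days, and the 3 mice of the vehicle group received the same volume of saline. The tissue is whole hippocampus and no gene was targeted, so that no knockout or transgene checks the labels, and every direction given is that of the SP label over the vehicle label. For *Cbln4* and for the myelin genes *Mbp* and *Mag* the study's text describes the reverse direction. Whether the group names of the deposited columns or the direction of the study's contrast were exchanged cannot be told apart here, so that each sign below holds for the labels as deposited and may not hold for the treatment. Mice are numbered 1 to 3 in each group, and the labels call this number a batch.

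Cerebellins are small secreted proteins of the C1q family that neurons release at synapses. The *Cbln1* protein binds neurexins on the presynaptic membrane, when these carry a particular alternatively spliced insert. It also binds delta-type glutamate receptors on the postsynaptic membrane, and so bridges the cleft. *Cbln1* is best known from the synapses of cerebellar granule cells onto Purkinje cells, while *Cbln2* and *Cbln4* are expressed in forebrain neurons. *Cbln3* is known from cerebellar granule cells, where its protein is secreted together with that of *Cbln1*. *Grid1* encodes the delta receptor GluD1, and *Nrxn2* and *Nrxn3* encode neurexins.

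The libraries held 22349964 to 27605935 counts, and a count of 0 allows a level of up to 0.109 to 0.135 CPM (counts for each 1000000 counts of normalized library size), from 3 counts and for counting error only. The markers of dentate granule cells, CA1 and CA3 pyramidal cells were present in every library, 5 of 5 in each list. A pair of libraries stood apart. In SP 1, the summed level of 3 choroid plexus markers was 155 CPM, where the other libraries had 2687 to 4540 CPM, and 9 cerebellar markers summed to 60.5 CPM, where the others had 26.6 to 38.6 CPM. In SP 2, all 8 interneuron markers were at their lowest (544 CPM summed, against 678 to 757 CPM elsewhere), and 6 oligodendrocyte markers summed to 6590 CPM, against 4003 to 5106 CPM. For the 4 cerebellins and the neurexophilins, values that rest on SP 1 or SP 2 are also given without that replicate number.

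Genes were called at the thresholds of the study, FDR < 0.1 and |log2FC| > 0.3, which the study applied to DESeq2 with adjustment for replicates. In edgeR's quasi-likelihood test with the replicate number as a block, the main test here, none of the 7 genes passed. Over all tested genes 5 passed (0.0293%), 2 lower (0.0117%) and 3 higher (0.0176%) in the libraries labelled SP, and in each of the 5 all libraries of 1 group were at 0. None of the 7 genes passed without the block either (0.012% of all genes), nor with limma-voom (0.0117%), without replicate 1 (0.0534%) or without replicate 2 (0.0776%). *Cbln4* passed with DESeq2 with the block, the study's kind of fit (FDR 0.0106, 0.211% of all genes), and without it (0.79%), and with edgeR without replicate 3 (0.215%). With no filter on low counts, *Cbln1* and *Cbln4* passed, where 1.37% of all genes did so. An unadjusted p under 0.05 was found for 2 of the 7, *Cbln1* and *Cbln4*, both lower, where 10.1% of all genes had one and 5.59% had one and were lower. The 3 libraries labelled SP lay below the 3 labelled vehicle in 3 of the 7 genes, all cerebellins, where 9.03% of all genes did so, and above them in 0 of 7, where 9.19% did so. The median log2 fold change of the 7 genes was -0.010, and that of all tested genes was 0.0015.

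**Figure D1:**
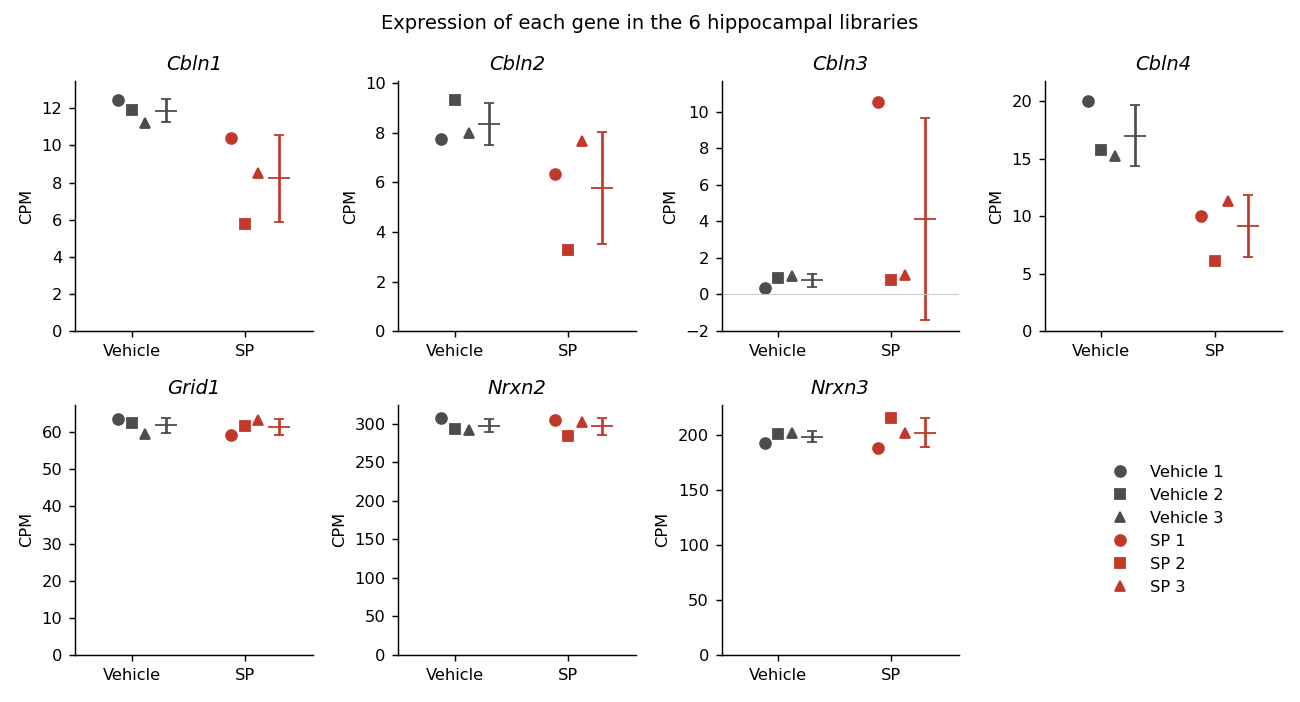
Expression of the 7 genes in CPM on linear axes, with a point for each library, a symbol for each replicate number, and the mean with its SD over 3 mice beside the points. *Cbln1*, *Cbln2* and *Cbln4* lay lower in all 3 libraries labelled SP, *Cbln3* was high in SP 1 alone, and the points of *Grid1*, *Nrxn2* and *Nrxn3* overlapped between groups.

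*Cbln4* (ENSMUSG00000067578, chr2:172036233-172043466, minus strand) gave the smallest FDR among the 7. Its protein binds neurexins and also the netrin receptors DCC and neogenin. Vehicle 1, 2 and 3 had 20.0, 15.8 and 15.2 CPM of it, from 466, 390 and 420 counts, and SP 1, 2 and 3 had 10.0, 6.14 and 11.3 CPM, from 235, 148 and 252 counts. The groups did not overlap, and the highest SP library was below the lowest vehicle library. The means were 17.0 ± 2.63 CPM (SD, n = 3 mice) and 9.16 ± 2.69 CPM (SD, n = 3), and edgeR fitted a log2 ratio of -0.92 with a standard error of 0.163 (FDR 0.308). The 95% interval of the fitted ratio ran from 0.407 to 0.691 of the vehicle level. Within replicate numbers 1, 2 and 3 the log2 ratio was -1.0, -1.36 and -0.43, lower in 3 of 3. Without replicate 2, the pair that holds SP 2, the fitted log2 ratio was -0.71. *Cbln4* was among the genes that the study singled out from these same libraries, with the reverse sign, so that its difference is no independent evidence and its direction holds for the deposited labels only. In bulk tissue, fewer cells that express a gene and less RNA per cell cannot be told apart.

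*Cbln1* (ENSMUSG00000031654, chr8:87468405-87472609, minus strand) stood at 12.5, 11.9 and 11.2 CPM with vehicle and at 10.4, 5.77 and 8.53 CPM with the SP label. Again all 3 SP libraries were below all 3 vehicle libraries, and SP 2 was lowest. The means were 11.9 ± 0.627 CPM (SD, n = 3) and 8.23 ± 2.33 CPM (SD, n = 3), with a fitted log2 ratio of -0.55 and a standard error of 0.155 (edgeR, FDR 0.382). The within-number log2 ratios were -0.26, -1.05 and -0.39. Leaving out replicate 2, the pair that holds SP 2, gave -0.33. The long noncoding RNA *Gm2694* overlaps *Cbln1* on the opposite strand, to an extent not measured here. It had 53, 61 and 59 counts in the vehicle libraries and 53, 26 and 37 in the SP libraries. The kit keeps strand, but whether the counting used it is not given in the sources used here, so that reads of both genes may not be fully separated.

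*Cbln2* (ENSMUSG00000024647, chr18:86711110-86718283, plus strand) had 7.74, 9.29 and 7.98 CPM in the vehicle libraries and 6.35, 3.28 and 7.68 CPM in the SP libraries. The groups were separated only narrowly, by 7.68 CPM in SP 3 against 7.74 CPM in vehicle 1. The means were 8.34 ± 0.838 CPM (SD, n = 3) and 5.77 ± 2.26 CPM (SD, n = 3). EdgeR fitted a log2 ratio of -0.58 with a standard error of 0.253 (FDR 0.503), and its 95% interval, from -1.17 to 0.015, included 0. The within-number log2 ratios were -0.28, -1.50 and -0.056, and leaving out replicate 2 gave -0.17. Replicate 2 holds both the lowest SP library and the highest vehicle library, so that neither value isolates SP 2.

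*Cbln3* (ENSMUSG00000040380, chr14:55878913-55884392, minus strand) had a pattern unlike the other cerebellins. It had 0.344, 0.889 and 1.02 CPM in the vehicle libraries, from 8, 22 and 28 counts, and 10.5, 0.789 and 1.03 CPM in the SP libraries, from 247, 19 and 23 counts. SP 1 was 10.2 times the highest of the other 5 libraries, while SP 2 and SP 3 were within or close to the vehicle range. The means were 0.750 ± 0.357 CPM (SD, n = 3) and 4.12 ± 5.55 CPM (SD, n = 3), so that the SD of the SP group exceeded its mean. The fitted log2 ratio of 1.71, with a standard error of 0.881 (edgeR, FDR 0.560), was -0.069 without replicate 1, the pair that holds SP 1. It was 2.53 and 2.58 without replicate 2 and 3.

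**Figure D2:**
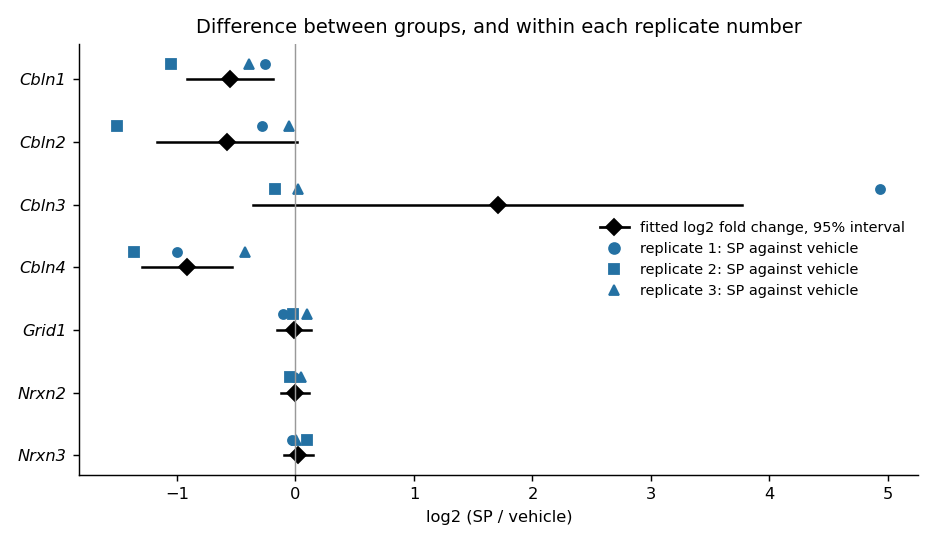
Log2 ratio of SP over vehicle for each gene. Diamonds with lines are the fitted log2 fold changes with their 95% intervals, and the symbols above them are the ratios within replicate 1, 2 and 3. *Cbln4* and *Cbln1* have intervals below 0, the replicate 1 ratio of *Cbln3* stands at 4.94, and the *Grid1* and neurexin ratios lie close to 0.

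In SP 1 several other genes of cerebellar neurons were high as well, but not all of those listed. *Gabra6*, a GABA-A receptor subunit of cerebellar granule cells, had 93 counts in SP 1 and 0 to 4 counts in the other libraries. *Fat2*, a cadherin of cerebellar granule cells, had 6.86 CPM in SP 1 and 0.387 to 1.44 CPM elsewhere. *Pcp2*, a Purkinje cell gene, had 56 counts in SP 1 and 0 to 14 elsewhere. Of the 9 cerebellar markers listed, 5 were highest in SP 1. *Cnpy1* and *En2*, genes of the midbrain and hindbrain border, were instead highest in SP 2, with 7.22 and 2.82 CPM, ahead of 4.82 and 1.92 CPM in SP 1. *Slc1a6* had 8.10 CPM in SP 1, within its range of 6.35 to 8.12 CPM elsewhere. *Barhl1* had 4 counts in each SP library and 0 to 3 in the vehicle libraries. *Gabra6*, *Barhl1* and *Pcp2* were at 0 in at least 1 library. Over the whole list, the summed level was 26.6 to 27.5 CPM in the vehicle libraries and 27.8 to 60.5 CPM in the SP libraries. The part of these markers in the *Cbln3* value was not tested.

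**Figure D3:**
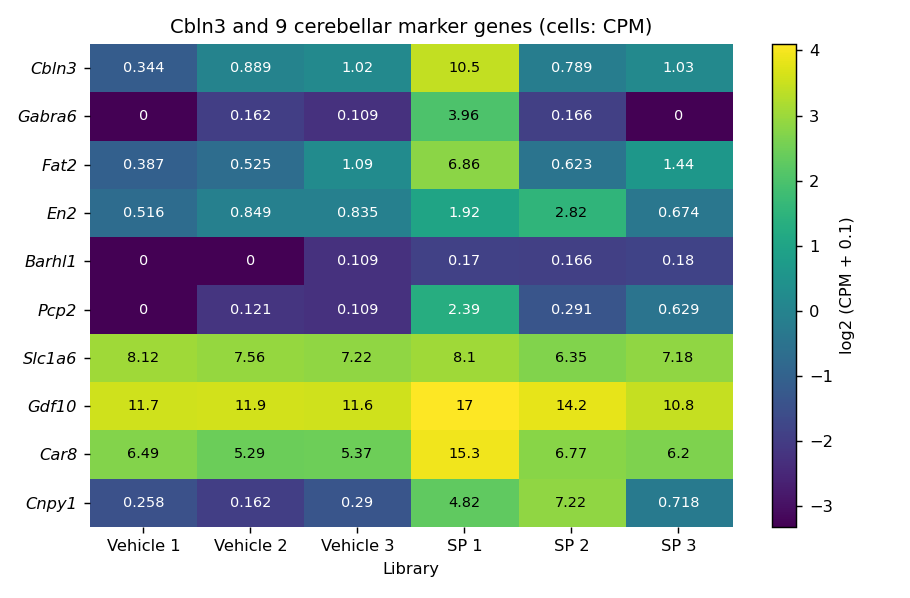
*Cbln3* and the 9 cerebellar markers in the 6 libraries, with the CPM printed in each cell and colour on a log2 scale after adding 0.1 CPM. The SP 1 column holds the highest value of *Cbln3*, *Gabra6*, *Fat2*, *Pcp2*, *Gdf10* and *Car8*.

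Since the cerebellins are related in sequence, reads could in principle be assigned to the wrong member. The most alike 60-base stretch of the coding sequences of *Cbln1*, *Cbln3* and *Cbln4* is shown for this reason, from the GENCODE M21 transcripts on GRCm38. It lies in exon 1 of each gene, on the minus strand, at chr8:87472118-87472177, chr14:55884056-55884115 and chr2:172042167-172042226. Capitals mark the bases that differ from *Cbln1*.
Cbln1: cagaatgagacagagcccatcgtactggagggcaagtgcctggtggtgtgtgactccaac
Cbln3: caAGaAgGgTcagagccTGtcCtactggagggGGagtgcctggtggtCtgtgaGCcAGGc
Cbln4: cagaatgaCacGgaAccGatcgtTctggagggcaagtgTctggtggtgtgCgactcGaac
Even here *Cbln4* differs from *Cbln1* at 8 and *Cbln3* at 16 of the 60 bases. The longest identical run in the coding sequences of any pair of cerebellins, *Cbln2* included, was 21 bases, and 0 of their 31-base sequences occur in another cerebellin. *Cbln1*, *Cbln2* and *Cbln4* share 0 of their 31-base sequences with any other annotated gene. *Cbln3* shares 142 of 4865 (2.92%), spread over genes other than cerebellins, *Grid1* among them with 19.

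The postsynaptic and presynaptic partners differed little between the groups. *Grid1* (ENSMUSG00000041078, chr14:34820108-35583379, plus strand) had 63.5, 62.5 and 59.4 CPM in the vehicle libraries and 59.1, 61.6 and 63.4 CPM in the SP libraries, and the groups overlapped. Its means were 61.8 ± 2.13 CPM and 61.4 ± 2.16 CPM (SD, n = 3 each). EdgeR fitted a log2 ratio of -0.010 with a standard error of 0.0612 (FDR 0.970), and the 95% interval of the ratio ran from 0.899 to 1.10.

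*Nrxn2* (ENSMUSG00000033768, chr19:6418731-6544169, plus strand) had 307, 293 and 292 CPM in the vehicle libraries and 304, 283 and 302 CPM in the SP libraries. Its fitted log2 ratio was -0.0054 with a standard error of 0.0498 (edgeR, FDR 0.981), and the 95% interval of the ratio ran from 0.919 to 1.08. *Nrxn3* (ENSMUSG00000066392, chr12:88722876-90334935, plus strand) had 193, 202 and 202 CPM in the vehicle libraries and 189, 216 and 202 CPM in the SP libraries. The fit gave a log2 ratio of 0.023 with a standard error of 0.0516 (edgeR, FDR 0.910) and an interval of the ratio from 0.935 to 1.11. In both genes the groups overlapped. The counts are sums over the 18 annotated transcripts of *Nrxn2* and the 13 of *Nrxn3*, so that the long and short neurexin forms and the splice insert that cerebellins bind cannot be told apart in them.

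For a comparison of levels between genes, CPM was divided by the length of all annotated exons in kb. On this scale the order of the mean over 6 libraries was *Nrxn2* (21.5 CPM per kb), *Nrxn3* (15.9), *Grid1* (10.3), *Cbln4* (4.51), *Cbln1* (3.31), *Cbln2* (2.44) and *Cbln3* (0.500). The 6 values of *Nrxn2*, *Nrxn3* and *Grid1* did not overlap with those of the next gene in the order, nor did those of *Grid1* with *Cbln4*. *Cbln4*, *Cbln1* and *Cbln2* overlapped with their neighbours when all 6 libraries were taken. In the 3 vehicle libraries alone no neighbours overlapped, and the cerebellins had 5.86 ± 0.905 (*Cbln4*), 3.91 ± 0.207 (*Cbln1*), 2.88 ± 0.290 (*Cbln2*) and 0.154 ± 0.0734 CPM per kb (*Cbln3*; SD, n = 3). The order was the same with the longest annotated transcript as the length, although *Nrxn2* and *Nrxn3* then had 44.5 and 25.3 CPM per kb.

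**Figure D4:**
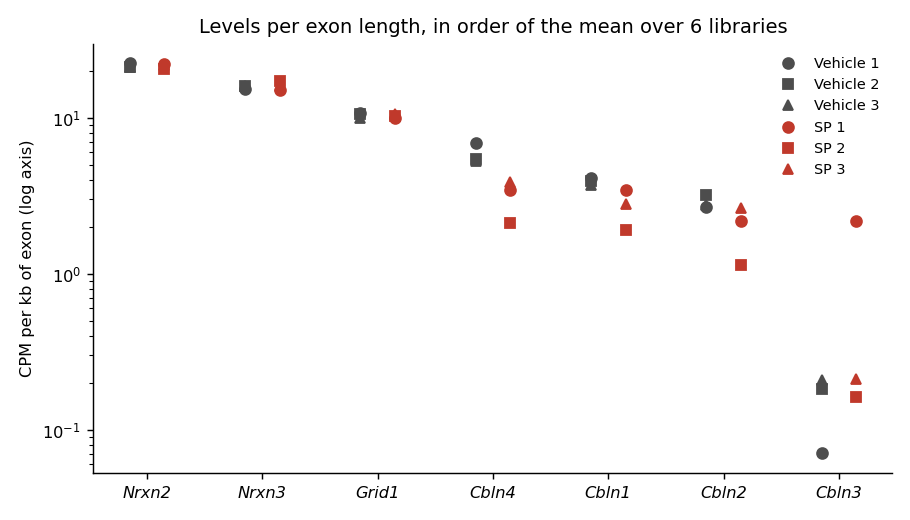
Level of each gene in CPM per kb of exon on a log axis, with a point for each library. Neurexins and *Grid1* lie above the cerebellins in every library, and the SP 1 point of *Cbln3* lies at 2.16 CPM per kb, among the values of *Cbln2*.

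The summed cerebellin level per kb, leaving out *Cbln3* because of SP 1, was 13.7, 12.6 and 11.7 in the vehicle libraries and 9.07, 5.15 and 9.36 in the SP libraries. *Cbln4* made up 50.5%, 43.2% and 44.9% of it in the vehicle libraries and 38.1%, 41.1% and 41.7% in the SP libraries. The share of *Cbln4* was thus lower in each SP library than in each vehicle library, which is a description of values already given and was not tested.

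The genes whose pattern over the 6 libraries was most like that of each cerebellin were found by the root mean square difference of log2 CPM after centring each gene on its mean. *Cbln4* varied by 0.547 on this measure, and its nearest genes were *Sowahb* (difference 0.0827), *Nxph4* (0.0879), *Zdhhc22* (0.0896), *Cd44* (0.115) and *Klf5* (0.122). *Nxph4*, a neurexophilin that binds neurexins, had 1.68, 1.41 and 1.20 CPM in the vehicle libraries and 0.895, 0.540 and 0.988 CPM in the SP libraries. Nearest to *Cbln1* were *Cntn5* (0.0428), a contactin adhesion protein, then *Gm14455*, *Gm16278*, the overlapping *Gm2694* (0.0798) and *Chrnb3*. *Gm14455*, *Gm16278* and *Chrnb3* had at most 1.07, 0.731 and 0.559 CPM in any library, so that counting error limits their likeness. Nearest to *Cbln2* were *Met* (0.0880), *Tcerg1l*, *Fmod*, *Amn* and *Cntnap3*. Nearest to *Cbln3* were *Fat2* (0.411), *Amd2*, *Pcp2* (0.681), *Ppp1r17* and *Bcl2l15*, all of which had their highest value in SP 1. Among the cerebellins themselves *Cbln1* and *Cbln2* were the most alike (0.225), followed by *Cbln1* and *Cbln4* (0.242) and *Cbln2* and *Cbln4* (0.260), and *Cbln3* differed from each of them by at least 1.48.

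Around the complex, 61 genes in 7 lists of synaptic organizers and scaffolds were examined, and 59 of them were tested. With edgeR 0 of 59 passed the thresholds, as with DESeq2 with or without the block and with limma-voom. An unadjusted p under 0.05 was found for 18 of 59 (30.5%, against 10.1% of all genes), 14 of them lower and 4 higher in the libraries labelled SP. Of all genes 5.59% had one and were lower. The groups did not overlap in 21 of 59 (35.6%, against 18.2% of all genes), with 14 lower and 7 higher. The shares of all genes were 9.03% lower and 9.19% higher. The median log2 fold change of the 59 genes was -0.011.

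The 7 tested secreted ligands of neurexins, neurexophilins and TAFA proteins, stood at a median of -0.15 on the log2 scale, 5 of 7 negative, and 4 did not overlap between the groups, all lower with the SP label, where 9.03% of all genes were lower without overlap. *Nxph2* was at the low end, with 2.28, 1.86 and 2.43 CPM in the vehicle libraries and 1.45, 0.540 and 1.48 CPM in the SP libraries (log2 fold change -0.97, standard error 0.273, FDR 0.383 from edgeR). *Nxph4* had a log2 fold change of -0.83 (FDR 0.432). *Nxph3*, named after its values were seen, had 25.1, 22.1 and 21.6 CPM against 17.5, 7.84 and 19.0 CPM, with SP 2 lowest (log2 fold change -0.70, FDR 0.406). SP 2 was lowest in all 4 neurexophilins, and without replicate 2 the log2 ratio was -0.68 for *Nxph2*, -0.35 for *Nxph3*, -0.59 for *Nxph4* and 0.025 for *Nxph1*. The fourth neurexophilin, *Nxph1*, overlapped between the groups (log2 fold change -0.15), and *Tafa1* was at the high end with 0.23, which was 0.027 without replicate 2.

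Among 11 postsynaptic ligands of neurexins the median was -0.0077. *Lrrtm3*, a leucine-rich repeat protein of excitatory synapses, had 24.1, 18.1 and 18.8 CPM in the vehicle libraries and 15.8, 11.5 and 17.0 CPM in the SP libraries (log2 fold change -0.47, standard error 0.113, FDR 0.338 from edgeR). The neuroligins *Nlgn1*, *Nlgn2* and *Nlgn3* had log2 fold changes of -0.0077, 0.0081 and -0.00016, and *Clstn2* was highest with 0.097. The 8 tested genes of the C1q-like ligands and their partners had a median of 0.095, 7 of 8 positive, from *C1ql3* with -0.070 to *C1ql2* with 0.26. *C1ql2*, a ligand secreted by dentate granule cells, had 59.4, 68.0 and 61.8 CPM against 87.7, 78.6 and 61.6 CPM, and SP 3 was within the vehicle range. In *Adgrb2* and *Grik4*, named after their values were seen, all SP libraries lay above all vehicle libraries (log2 fold changes 0.18 and 0.22).

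Proteins that bind the neurexin tail had a median of 0.033 over 8 genes, from *Cask* (-0.15) to *Lin7b* (0.17). Those that bind the delta receptor tail had a median of -0.014 over 6 genes, from *Ptpn4* (-0.22) to *Grid2ip* (0.19), which was -0.28 without replicate 1 and 1.15 without replicate 2. The LAR-type phosphatases and their ligands, which organize synapses beside the neurexins, had a median of -0.060 over 15 genes, from *Il1rapl1* (-0.30) to *Lrrc4b* (0.11). In *Cask*, *Ptpn4* and *Il1rapl1* the 3 SP libraries lay below the 3 vehicle libraries, and in *Lin7b* they lay above them. Over these 3 lists, of 8, 6 and 15 genes, the groups did not overlap in 8 genes that were lower and 4 that were higher. Of all tested genes 9.03% were lower and 9.19% higher without overlap. The netrin receptors *Dcc* and *Neo1*, to which the *Cbln4* protein binds, had log2 fold changes of -0.065 and -0.027 (FDR 0.822 and 0.912).

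**Figure D5:**
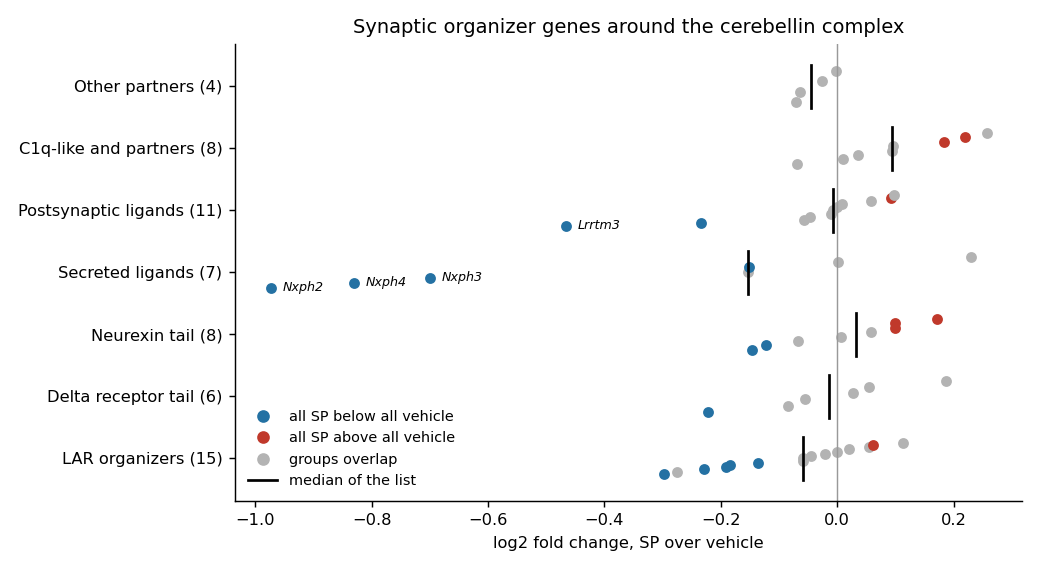
Log2 fold change of the 59 tested genes in 7 lists, a point for each gene and a bar for the median of each list, with the number tested in parentheses. Blue and red points are genes in which all SP libraries lie below or above all vehicle libraries, and *Nxph2*, *Nxph4*, *Nxph3* and *Lrrtm3* have the lowest log2 fold changes.

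Markers of other cells differed between the groups in the same libraries as *Cbln1*, *Cbln2* and *Cbln4*. The 3 markers of layer 6b and subplate neurons summed to 28.5 to 35.7 CPM in the vehicle libraries and 19.7 to 22.0 CPM in the SP libraries, with 3 of 3 lower. The 10 neocortical layer markers summed to 377 to 408 CPM against 304 to 373 CPM, with 9 of 10 lower and 7 of 10 lowest in SP 2. The 3 subiculum markers summed to 99.0 to 103 CPM against 65.5 to 98.1 CPM, and all 3 were lowest in SP 2. The 6 oligodendrocyte markers summed to 4003 to 4493 CPM against 4600 to 6590 CPM, and the 5 CA3 markers to 184 to 198 CPM against 203 to 257 CPM, both higher in each SP library. The oligodendrocyte list holds *Mbp* and *Mag*, for which the study's text gives the reverse direction. Interneuron, thalamic, CA1 and dentate granule cell markers overlapped between the groups, at 678 to 757, 115 to 146, 587 to 650 and 333 to 353 CPM in the vehicle libraries and 544 to 730, 113 to 125, 576 to 644 and 315 to 424 CPM in the SP libraries. In these lists no marker was at 0 in any library. Their part in the cerebellin values was not tested.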

How the data were processed

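The deposited table holds estimated counts per gene for 6 libraries made with a stranded mRNA kit. The authors trimmed reads with Trim Galore, aligned them to GRCm38 with STAR and quantified them with Salmon, with no scaling for library size or gene length. The annotation release is not given in the sources used here. The values, 9.77% of which were not whole, were rounded.

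Genes were kept by edgeR's filterByExpr given the design (minimum count 10, minimum total 15), normalized by TMM and tested with edgeR 4.0.16 in R 4.3.3 (glmQLFit, glmQLFTest), SP against vehicle with the replicate number as a block, as the study adjusts for replicates in DESeq2. The labels call this number a batch, and the block treats same-numbered mice as a pair. Whether these mice were matched is not given in the sources used here. Deviations from the group means in same-numbered mice had Pearson's r of 0.0140, -0.0656 and 0.0734 across genes. Benjamini-Hochberg adjustment ran over all 17069 tested genes. Exact permutation of 3 against 3 mice cannot reach a two-sided p below 0.1, and was not run. The fits were tested on simulated data. Alternatives used DESeq2 1.42.0, limma-voom (limma 3.58.1), other normalizations and filters, or left out replicates. Positions, lengths and sequences came from GENCODE M21.

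Named were the 7 members, the ends of each gene list, genes called, the 5 genes most like each cerebellin (log2 CPM with a prior count of 2) and markers at 0. Beyond this rule, genes of the cerebellar marker list, *Nxph1*, *Nxph3*, *Adgrb2*, *Grik4*, the neuroligins, *Dcc* and *Neo1* were named after their values were seen, and the end genes of the list of other binding partners are not reported here. The members and lists were chosen with earlier results of these data known.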

Additional observations from a re-analysis of the deposited data

How the results depend on the processing

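The number of genes passing the thresholds, 5, was 2 without the replicate block, 384 when low counts were not filtered, 36 and 132 by DESeq2 with and without the block, 2 with limma-voom and 9 to 36 when a replicate number was left out. It was 0 at FDR < 0.05 and 0 with at least 10 counts in every library, where edgeR gave an unadjusted p under 0.05 for 1720 and 1663 genes. *Cbln4* passed with no filter (log2 fold change -0.92, FDR 0.00039), with DESeq2 with the block (-0.93, FDR 0.0106) and without it (-0.90, FDR 0.00136), and without replicate 3 (-1.17, FDR 0.0460); it ranged from -1.17 to -0.71 when a replicate number was left out, and its FDR from 0.00039 to 0.660 over all alternatives. *Cbln1* passed with no filter (-0.56, FDR 0.0367), and its FDR ranged up to 0.712. *Cbln2* passed in none of 11 alternatives. When a replicate number was left out, *Cbln3* ranged from -0.069 to 2.58, *Grid1* from -0.066 to 0.036, *Nrxn2* from -0.034 to 0.016 and *Nrxn3* from -0.014 to 0.051, so that their direction depended on the mice included. *Cbln3* was not tested when 10 counts were required in every library. Of the list genes, 3 of 59 passed with no filter (*Lrrtm3*, *Nxph2* and *Nxph3*), where 1.37% of all genes did so. In the other settings 0 passed. Without the replicate block, *Cbln4* had a log2 fold change of -0.89 and no call on the 7 genes changed. Each sign refers to the deposited labels, which the study's text reverses for *Cbln4*. The causes were not tested. Counts of 8 to 28 in 5 libraries limit *Cbln3*, and 3 mice in each group limit every estimate.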
